A study of Mus musculus with 6 samples.

Results

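Genes of vessel sprouting and its negative feedback were examined in liver sinusoidal endothelial cells (SECs) from fibrotic mouse livers. They are Esm1, Vash1, Thbs1, Robo4, Pdgfb, Cd93, Clec14a and Egfl7. They were taken by name as tip cell genes, and as inhibitors that endothelium makes while it sprouts, and all 8 have a row among the 41799 rows of the gene table. All 8 also passed the filter on low counts, which left 15404 genes for testing.

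There were 3 SEC libraries from mice with RBPj knocked out in the endothelium (knock-out) and 3 from control mice. The labels give 1 treatment for both groups, male mice that received tamoxifen, the drug that switches on an inducible Cre recombinase, at 2 mg per 20 g of body weight daily for 7 days from an age of 4 to 6 weeks. Both then received carbon tetrachloride (CCl4), a liver toxin that causes fibrosis, at 0.6 µl per g as a 15% solution in olive oil, 2 times a week for 6 weeks, and were 12 to 14 weeks old at collection. The strain is labelled C57BL/6 for the 3 control libraries and knock-out library 1, C57BL/7 for knock-out library 2 and C57BL/8 for knock-out library 3. The sources used here give neither the promoter that drives Cre nor the alleles of the control mice, and no liver without CCl4 was included. Whether each library stands for its own mouse is not stated, and the p-values cover only how far these libraries varied, which may be technical.

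In sprouting vessels, a VEGF-guided tip cell leads and its neighbours follow as stalk cells, and Notch signalling in the stalk cells holds back the tip cell programme. RBPj is the DNA-binding protein through which the cleaved Notch receptors act on transcription. Endothelium that responds to VEGF also makes its own brakes, secreted or membrane proteins that limit further sprouting or steady the new vessel, and in liver fibrosis the sinusoids lose their fenestrae while new vessels form along the scars.

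Total counts per library ran from 10372195 to 12326770. Rbpj itself had 11.6, 8.10 and 11.9 CPM (each gene's share of a library's counts, scaled to a common library size by the TMM method) in knock-out libraries 1 to 3, against 18.6, 14.5 and 16.4 CPM in control libraries 1 to 3. Every knock-out library was below every control library, yet each kept Rbpj counts, at a log2 fold change of -0.64 ± 0.19 (SE), 95% interval from -1.11 to -0.17, and edgeR gave a Benjamini-Hochberg adjusted p of 0.187. The 14 sinusoidal and pan-endothelial markers summed to 21782 to 25773 CPM in the knock-out libraries and 16321 to 22810 CPM in the controls, although Erg, an endothelial transcription factor, was at 0.746 to 2.46 CPM throughout. The 12 stellate cell and fibroblast markers summed to 1461 to 6188 CPM in the knock-out libraries and 4549 to 12757 CPM in the controls, with overlap. The log2 fold change was negative for 12 of 12, against 8290 of 15404 tested genes, and markers of 1 cell type are not separate observations. Without overlap 7 were lower, against 11.7% of all tested genes. Both edgeR and limma-voom called 0 of the 12, and DESeq2 called 3 lower, against 2.7% lower over all genes it tested. In such bulk samples, fewer cells of a type and less RNA per cell cannot be told apart.

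Of the 8 genes, 3 (Vash1, Cd93 and Egfl7) had every knock-out library above every control library, and none had every knock-out library below. Among all tested genes the groups did not overlap for 24.9%, with 13.2% higher and 11.7% lower in the knock-out. The quasi-likelihood test of edgeR called 0 of the 8 at an adjusted p of 0.05, where it called 0.195% of all tested genes, 0.104% higher and 0.0909% lower. The same 3 genes had an unadjusted p under 0.05, as did 17.5% of all tested genes. DESeq2, which called 6.31% of the genes it tested (3.61% higher and 2.7% lower), called these 3 higher and 0 of the 8 lower. limma-voom, which called 3.17% of all tested genes (1.89% higher and 1.29% lower), called 1 of the 8, Vash1. Of the 8 genes, 5 had a positive and 3 a negative log2 fold change, and their median was 0.19, against -0.03 over all tested genes.

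**Figure D1:**
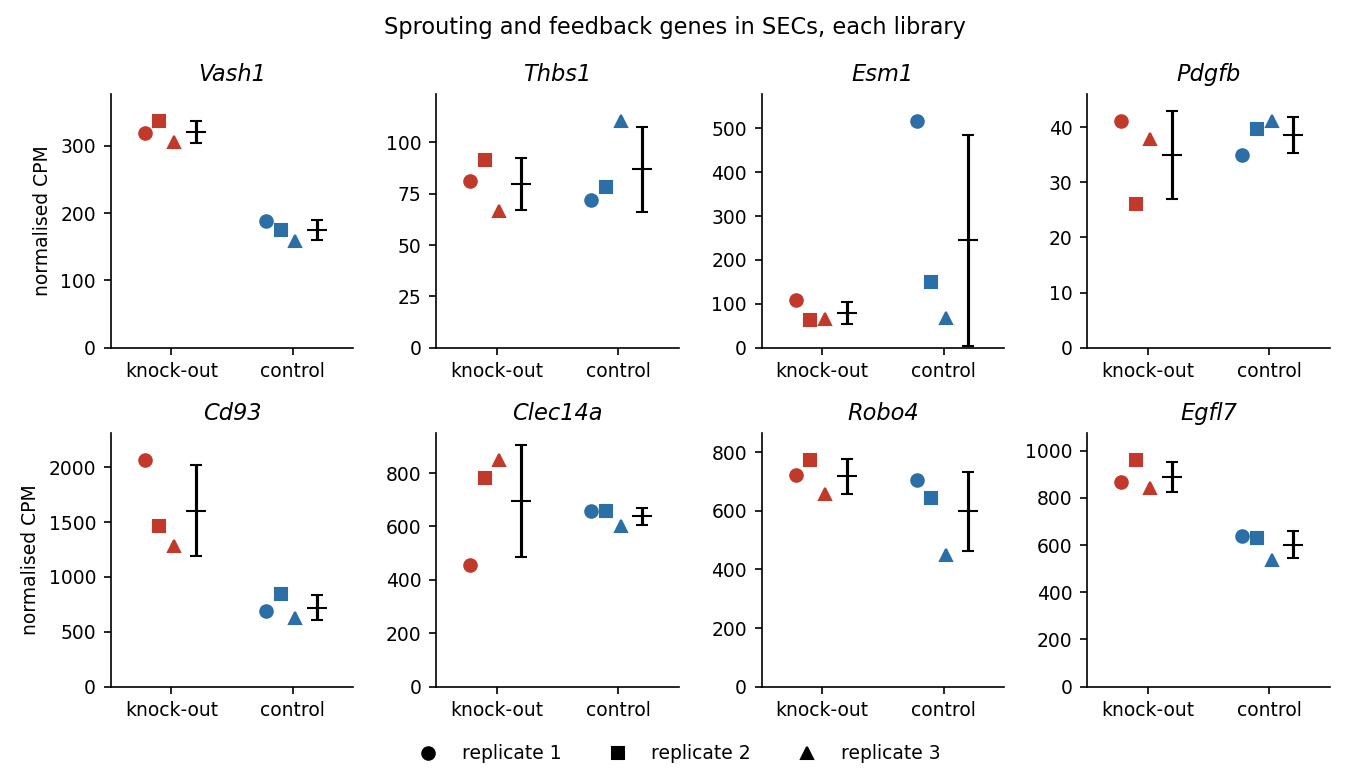
Normalised CPM of each of the 8 genes (vertical axes, each starting at 0) in the 3 RBPj knock-out libraries (red, left) and the 3 control libraries (blue, right). The marker shape gives the replicate number and the black bar the mean with its SD. Vash1, Cd93 and Egfl7 separate the groups, while Esm1 has a single control library at 517 CPM and the other 5 libraries at 63.9 to 149 CPM.

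Vash1 encodes vasohibin-1, a secreted inhibitor of angiogenesis that endothelial cells make in response to VEGF, and which with its small partner Svbp also removes the terminal tyrosine of tubulin. The gene lies on the plus strand of chromosome 12 (mm10, chr12:86678700-86695688) and its main transcript has 7 exons. Vash1 had 318, 337 and 305 CPM in the knock-out libraries, against 189, 175 and 159 CPM in the controls. The lowest knock-out library was well above the highest control library, and the libraries of each group lay close together, with a coefficient of variation of 5.05% in the knock-out and 8.58% in the control.

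The level of Vash1 was 1.84-fold that of the controls, a log2 fold change of 0.88 ± 0.11 (SE) with a 95% interval from 0.61 to 1.15. By its edgeR p-value it ranked 50 among all tested genes, and its Benjamini-Hochberg adjusted p of 0.0508 was just outside the threshold. It passed with RLE size factors in edgeR (adjusted p = 0.0495), with a stricter count filter in edgeR (adjusted p = 0.0470), with no count filter in edgeR (adjusted p = 0.0189), in limma-voom (adjusted p = 0.0176) and in DESeq2 (adjusted p = 1.81e-09). With any 1 library left out the log2 fold change stayed between 0.81 and 0.94, and edgeR's adjusted p ran from 0.0722 to 0.196.

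Of the partners of vasohibin-1, Svbp (listed under its older name Ccdc23) had 23.8, 22.0 and 21.0 CPM in the knock-out libraries and 15.9, 19.4 and 21.1 CPM in the controls, with overlapping groups and an edgeR adjusted p of 0.412. The paralog Vash2, which in mice promotes rather than limits vessel growth, was at 0.640 to 2.40 CPM over the 6 libraries. Per gene length, Vash1 averaged 47.8 ± 1.11 RPKM (counts divided by gene length and by the library total) in the knock-out and 24.5 ± 2.44 RPKM in the controls, against 0.403 ± 0.148 RPKM and 0.364 ± 0.204 RPKM for Vash2 in the same groups (SD, n = 3 each).

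The 250 bases upstream of the Vash1 start site are shown because this was the gene with the smallest p of the 8. They were searched on both strands for GTGGGAA, the core site of RBPJ, for CACGTG, an E-box bound by Hes and Hey repressors, and for AGGAAG, a core of sites for ETS factors, which many endothelial genes carry. A single ETS match, in capitals and on the opposite strand (CTTCCT), begins 178 bases before the start. The sequence is from RefSeq on GRCm38.p6 (chr12:86678450-86678699, plus strand).
Vash1 upstream region: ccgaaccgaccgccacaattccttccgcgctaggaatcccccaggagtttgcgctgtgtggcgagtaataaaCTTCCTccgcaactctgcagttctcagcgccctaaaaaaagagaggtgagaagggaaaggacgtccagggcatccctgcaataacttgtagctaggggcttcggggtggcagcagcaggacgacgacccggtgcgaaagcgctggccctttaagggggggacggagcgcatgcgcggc

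Upstream regions of 5 of the 8 genes were available (Esm1, Vash1, Robo4, Clec14a and Egfl7). GTGGGAA was in 0 of the 5, against 5.42% of the 32851 promoter windows of that length in the whole RefSeq table, and CACGTG was in 0 of the 5, against 6.02%. The ETS core was in 3 of the 5, Vash1, Robo4 and Egfl7, and in 29.5% of all promoter windows. The counts out of 5 take all windows of a gene together, while the percentages count single windows, so the units differ. RefSeq lists 3 start sites of Egfl7, of which the first and second had matches, and no match overlapped another motif. A match here is a description of letters in a window and not a bound site. Upstream is relative to the RefSeq start site, which for Robo4 and Egfl7 lies inside the gene span given in this report. Their windows, the first one for Egfl7, end at chr9:37401971 and chr2:26581082. The matches of Robo4 and Egfl7 are shown with 12 bases on either side, the matched letters in capitals, all on GRCm38.p6 and the plus strand.
Robo4, match 49 bases upstream, chr9:37401911-37401940: tgagggccaggcAGGAAGcatccgtttcct
Egfl7 first promoter, match 216 bases upstream, chr2:26580855-26580884: cttgcccagtcaCTTCCTttagagccctca
Egfl7 first promoter, match 89 bases upstream, chr2:26580982-26581011: tgggagacaaacAGGAAGgccatctctctg
Egfl7 first promoter, match 49 bases upstream, chr2:26581022-26581051: tgctggtctttcCTTCCTgaggtgcagctg
Egfl7 second promoter, match 80 bases upstream, chr2:26583773-26583802: gagaacacacacAGGAAGtccggcgggaag

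Thbs1 encodes thrombospondin-1, a matrix glycoprotein that restrains angiogenesis through the receptors CD36 and CD47 and can activate latent TGF-β. The gene lies on the plus strand of chromosome 2 (chr2:118111890-118127133) and has 22 exons. Thbs1 had 81.1, 91.7 and 66.4 CPM in the knock-out libraries, against 71.8, 78.2 and 111 CPM in the controls. The groups overlapped, with the highest value in control library 3, which also had the highest sum of stellate cell markers (12757 CPM). Knock-out library 1 had the lowest such sum (1461 CPM), yet more Thbs1 than control libraries 1 and 2 (sums of 4549 and 7503 CPM). The part of stellate cells in the Thbs1 values was not tested. The log2 fold change was -0.12 ± 0.20 (SE), with a 95% interval from -0.62 to 0.37 and an edgeR adjusted p of 0.783, and it was 0.09 without control library 3.

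Both Thbs1 receptors were above the ligand per gene length, Cd36 at 250.4 ± 41.7 RPKM and Cd47 at 87.3 ± 3.53 RPKM in the knock-out, and 321 ± 115 RPKM and 96.3 ± 17.1 RPKM in the controls (SD, n = 3 each). By library, Cd36 was at 1148, 884 and 917 CPM in the knock-out libraries and at 1471, 1667 and 864 CPM in the controls (edgeR adjusted p = 0.437), and the groups overlapped. Cd47 was at 272, 273 and 279 CPM in the knock-out libraries and 398, 309 and 265 CPM in the controls (edgeR adjusted p = 0.491), again with overlap. Thbs2, the related inhibitor made by fibroblasts and other cells, averaged 51.7 ± 28.8 CPM in the knock-out libraries and 81.3 ± 28.1 CPM in the controls (SD, n = 3 each).

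Esm1 encodes endocan, a secreted proteoglycan that VEGF induces and that marks tip cells. It lies on the plus strand of chromosome 13 (chr13:113209659-113218104) with 3 exons. Esm1 had 108, 63.9 and 64.8 CPM in the knock-out libraries, against 517, 149 and 67.3 CPM in the controls. Control library 1 stood far above the rest and control library 3 lay among the knock-out libraries, so the groups overlapped.

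The mean of Esm1 was 78.8 ± 24.98 CPM in the knock-out and 244 ± 240 CPM in the control (SD, n = 3 each), and the coefficient of variation among controls, 98.1%, was the widest of the 8 genes. Its log2 fold change was -1.63 ± 0.75 (SE), with a 95% interval from -3.48 to 0.21, and an edgeR adjusted p of 0.327. Without control library 1 the log2 fold change was -0.46 (edgeR adjusted p = 0.622), and leaving out each of the other libraries gave values down to -2.08. The size of the difference thus rested on 1 control library.

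The same control library had by far the most neutrophil marker RNA. The 8 neutrophil markers, all with a negative log2 fold change and 0 of 8 called by edgeR, DESeq2 or limma-voom (0 of 8 also had an unadjusted p under 0.05), summed to 4434, 778 and 635 CPM in knock-out libraries 1 to 3, against 20296, 350 and 408 CPM in control libraries 1 to 3. Control libraries 2 and 3 were thus below every knock-out library in this sum, and control library 2, the lowest, had the second highest Esm1 (149 CPM). The part of neutrophils in the Esm1 values was not tested.

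**Figure D2:**
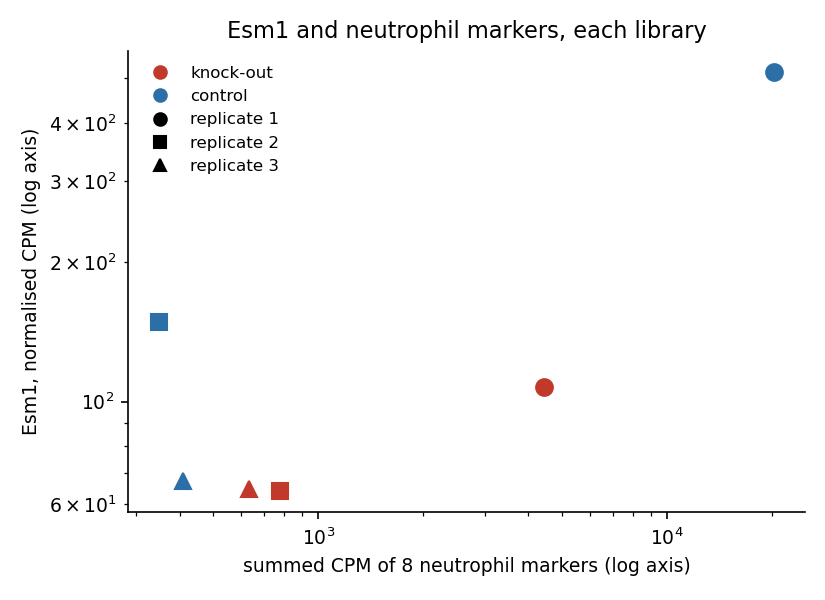
Esm1 (vertical axis, normalised CPM, log axis) against the summed CPM of 8 neutrophil markers (horizontal axis, log axis) in the 3 knock-out libraries (red) and the 3 control libraries (blue), with the replicate number as the marker shape. Control library 1 is at 517 CPM of Esm1 and 20296 CPM of neutrophil markers, and the other 5 libraries are at 63.9 to 149 CPM of Esm1 and 350 to 4434 CPM of the markers.

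Pdgfb encodes the PDGF-BB ligand, by which sprouting endothelium recruits pericytes and which in the liver acts on hepatic stellate cells through PDGFRβ. It lies on the minus strand of chromosome 15 (chr15:79995865-80014808) with 7 exons. Pdgfb had 41.1, 26.0 and 37.8 CPM in the knock-out libraries, against 35.0, 39.7 and 41.2 CPM in the controls. Knock-out library 2 was lowest and the other 5 libraries lay within 35.0 to 41.2 CPM. The log2 fold change was -0.14 ± 0.19 (SE), with a 95% interval from -0.59 to 0.31 and an edgeR adjusted p of 0.719.

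The receptor and the sister ligands had other patterns. Pdgfrb, a stellate cell gene, had 34.4, 160 and 139 CPM in the knock-out libraries, against 115, 163 and 466 CPM in the controls (edgeR adjusted p = 0.461), and its lowest and highest libraries, knock-out library 1 and control library 3, were also those of the summed stellate markers, of which it is itself 1 of 12. Pdgfd, the ligand that also signals through PDGFRβ, had 18.5, 20.3 and 24.5 CPM in the knock-out libraries, against 37.1, 37.0 and 34.1 CPM in the controls. The Pdgfd groups did not overlap, and the log2 fold change was -0.77 ± 0.13 (SE, edgeR adjusted p = 0.0825). Platelets are another source of PDGF-BB and thrombospondin-1 protein. Of 11 platelet markers 2 could be tested, Pf4, Ppbp and Gp1bb were at 0 in every library, and the summed level, nearly all Itga2b, was 32.3 to 161 CPM in the knock-out libraries and 16.5 to 23.9 CPM in the controls.

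Cd93 and Clec14a encode related transmembrane C-type lectins of endothelium, which both bind the matrix protein multimerin-2 (Mmrn2) and take part in endothelial adhesion, migration and tube formation. Cd93 lies on the minus strand of chromosome 2 (chr2:148436651-148443535) with 2 exons. Cd93 had 2068, 1464 and 1279 CPM in the knock-out libraries, against 688, 846 and 626 CPM in the controls. Every knock-out library was above every control library, with knock-out library 1 the highest.

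The level of Cd93 was 2.23-fold that of the controls, the largest positive fold among the 8 genes, at a log2 fold change of 1.16 ± 0.23 (SE), 95% interval from 0.60 to 1.71. The edgeR test gave an adjusted p of 0.102, while DESeq2 gave an adjusted p of 1.67e-04 and edgeR with no count filter an adjusted p of 0.0414. In limma-voom the log2 fold change was 0.91 (adjusted p = 0.0538). With any 1 library left out, edgeR's adjusted p ran from 0.106 to 0.287. Without knock-out library 1 the log2 fold change was 0.94, and over all 6 libraries left out in turn it ran up to 1.31. Cd93 is also made by myeloid cells, and the 11 macrophage markers (2 positive and 9 negative log2 fold changes) summed to 2770, 682 and 1136 CPM in knock-out libraries 1 to 3, against 2329, 2898 and 3867 CPM in control libraries 1 to 3. Their part in the Cd93 values was not tested.

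Clec14a, a gene of 1 exon on the minus strand of chromosome 12 (chr12:58264720-58269258), had 456, 781 and 850 CPM in the knock-out libraries, against 657, 656 and 601 CPM in the controls. The knock-out libraries lay on both sides of the tightly grouped controls, and the knock-out library lowest in Clec14a, library 1, was the one highest in Cd93. Its log2 fold change was 0.12 ± 0.24 (SE), with a 95% interval from -0.46 to 0.71, and an edgeR adjusted p of 0.821.

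The ratio of Cd93 to Clec14a counts does not depend on the scaling between libraries. It was 4.54, 1.87 and 1.504 in the knock-out libraries, against 1.05, 1.29 and 1.04 in the controls. Each knock-out library had a higher ratio than each control library, 2.09-fold on average, with knock-out library 1 far above the other knock-out libraries. The exact two-sided permutation test gave p = 0.1, the smallest that 3 libraries against 3 allow. The pair came from members chosen with earlier results known, and Cd93 alone already separated the groups, so this p adds no support. Mmrn2, the shared ligand, was at 692, 770 and 712 CPM in the knock-out libraries and 770, 776 and 656 CPM in the controls, with a log2 fold change of -0.02, a 95% interval from -0.33 to 0.29 and an edgeR adjusted p of 0.952.

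**Figure D3:**
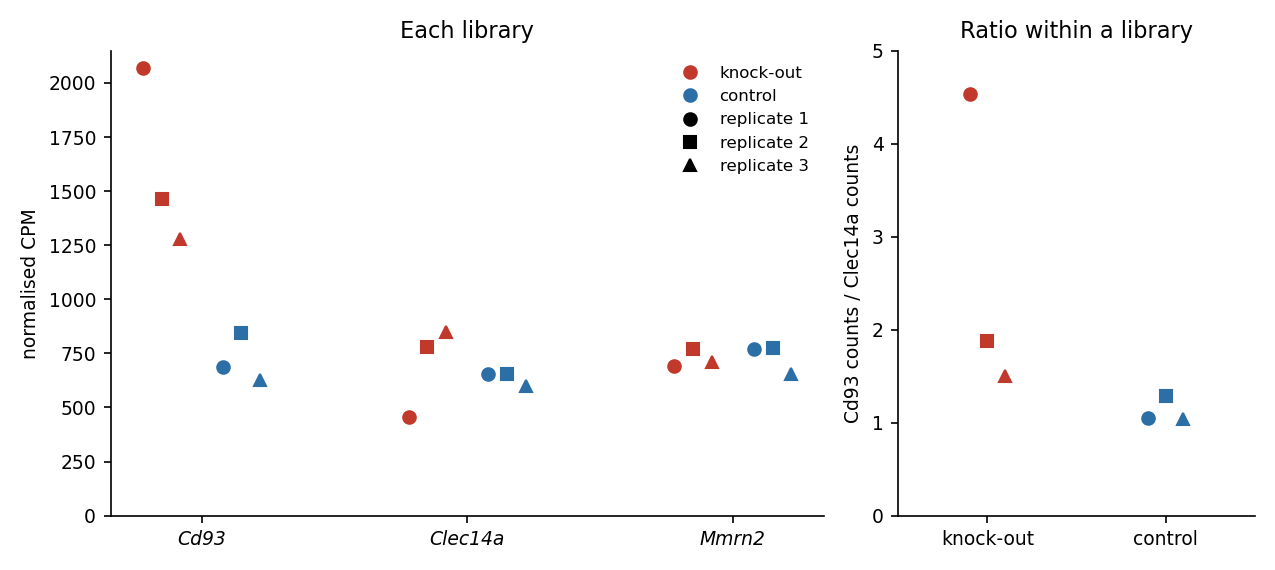
Left, normalised CPM of Cd93, Clec14a and their ligand Mmrn2 in the 3 knock-out libraries (red) and the 3 control libraries (blue), with the replicate number as the marker shape. Right, counts of Cd93 divided by counts of Clec14a within each library, 1.504 to 4.54 in the knock-out and 1.04 to 1.29 in the control.

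The remaining relatives of the lectin family gave values as follows. Thbd, thrombomodulin, an endothelial anticoagulant receptor, had 1094, 736 and 660 CPM in the knock-out libraries and 768, 1051 and 638 CPM in the controls, with overlapping groups (edgeR adjusted p = 0.977). Cd248, endosialin, a mesenchymal member of the family, was at 7.27, 11.6 and 9.30 CPM in the knock-out libraries and at 9.81, 33.3 and 46.4 CPM in the controls (edgeR adjusted p = 0.223).

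Robo4 encodes an endothelial roundabout receptor that steadies vessels against VEGF, in part through Unc5b. It lies on the plus strand of chromosome 9 (chr9:37401902-37414023) with 18 exons. Robo4 had 723, 774 and 656 CPM in the knock-out libraries, against 707, 643 and 448 CPM in the controls. The groups overlapped, and control library 3 was the lowest of the 6. The log2 fold change was 0.26 ± 0.20 (SE), with a 95% interval from -0.21 to 0.73 and an edgeR adjusted p of 0.526, and with any 1 library left out it ran from 0.09 to 0.39.

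Unc5b, the netrin receptor to which Robo4 binds, had 74.8, 109 and 90.6 CPM in the knock-out libraries and 50.0, 97.6 and 152 CPM in the controls (edgeR adjusted p = 0.898). Slit2 and Slit3, the ligands of other roundabout receptors, were scarce in both groups, at 2.95 to 5.82 CPM and 3.33 to 12.5 CPM in the knock-out libraries, against 5.41 to 7.26 CPM and 2.87 to 6.18 CPM in the controls.

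Egfl7 encodes a secreted EGF-domain protein of endothelium that is deposited in the matrix of new vessels and guides tube formation. It lies on the plus strand of chromosome 2 (chr2:26581028-26592682), and its principal transcript has 10 exons. Egfl7 had 868, 962 and 840 CPM in the knock-out libraries, against 639, 632 and 536 CPM in the controls. The groups did not overlap, and each was narrow, with a coefficient of variation of 7.17% in the knock-out and 9.58% in the control.

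The level of Egfl7 was 1.48-fold that of the controls, at a log2 fold change of 0.56 ± 0.13 (SE), 95% interval from 0.24 to 0.88. The edgeR test gave an adjusted p of 0.133, DESeq2 an adjusted p of 0.0020 and limma-voom an adjusted p of 0.0590. With any 1 library left out the log2 fold change ran from 0.48 to 0.62, and edgeR's adjusted p from 0.136 to 0.373.

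Several general endothelial markers had folds of a like size. Tie1, an endothelial receptor tyrosine kinase, had 1155, 1322 and 1177 CPM in the knock-out libraries, against 813, 885 and 719 CPM in the controls, 1.51-fold the control level (edgeR adjusted p = 0.133). Cdh5, the junction protein VE-cadherin, was 1.42-fold (edgeR adjusted p = 0.215) and Stab2, a sinusoidal scavenger receptor, 1.82-fold the control level (edgeR adjusted p = 0.138), both without overlap. Over the 14 endothelial markers, 5 were higher and 2 lower without overlap, against 13.2% higher and 11.7% lower over all tested genes. The lower ones were Clec4g, a sinusoidal lectin, at 0.489-fold and Ptprb, an endothelial phosphatase, at 0.711-fold. At an unadjusted edgeR p under 0.05, 3 were higher and 2 lower, against 17.5% of all tested genes. Both edgeR and limma-voom called 0 of the 14. DESeq2 called 2 higher and 1 lower, against 3.61% higher and 2.7% lower over all genes it tested. The part of such marker shifts in the Egfl7, Vash1 and Cd93 values was not tested. Scaling to the summed counts of 6 pan-endothelial markers left log2 fold changes of 0.53 for Egfl7, 0.85 for Vash1 and 1.14 for Cd93. That sum was 8071, 8811 and 7970 CPM in the knock-out libraries and 8505, 9028 and 6933 CPM in the controls. Ptprb supplied 2541, 3399 and 2982 CPM of it in the knock-out libraries and 4406, 4680 and 3463 CPM in the controls. With Ptprb offsetting the other markers in the sum, this scaling could not remove a rise shared with Tie1 or Cdh5.

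Intron 7 of the principal Egfl7 transcript holds Mir126a, the source of miR-126, an endothelial microRNA known to favour VEGF signalling by repressing inhibitors such as Spred1. The mature strand is shown for that link, with its seed (bases 2 to 8) in capitals, from RefSeq on GRCm38.p6 (chr2:26591402-26591423, plus strand).
mmu-miR-126a-3p: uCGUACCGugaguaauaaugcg
The hairpin row had 2, 6 and 1 counts in the knock-out libraries and 4, 5 and 0 counts in the controls. The series profiled messenger RNA, and the mature microRNA was not measured.

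**Figure D4:**
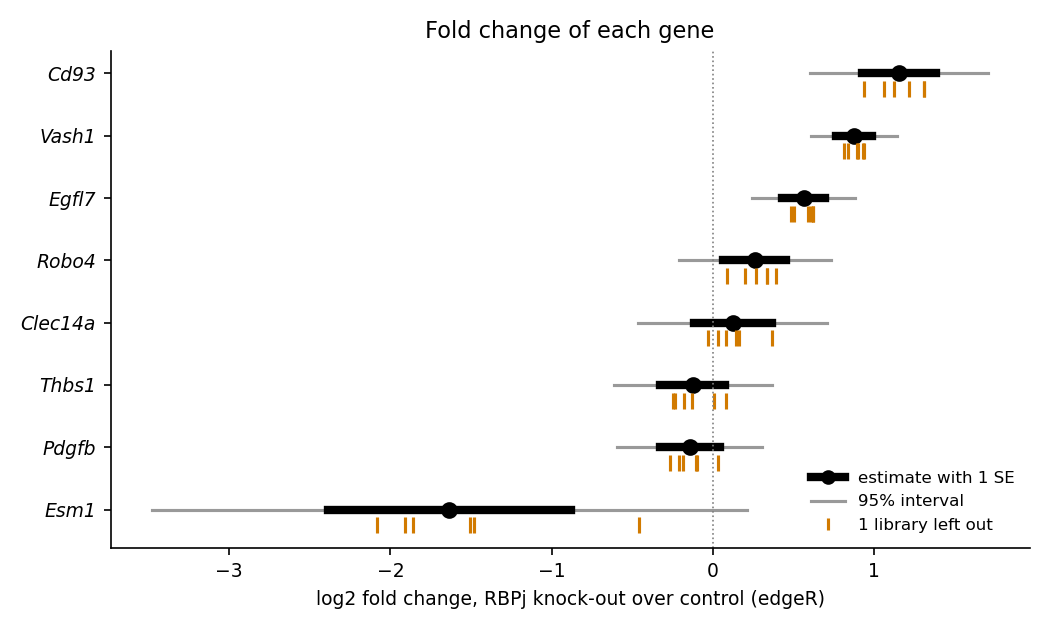
Log2 fold change of each gene, RBPj knock-out over control, from edgeR (horizontal axis). Points are estimates, thick bars 1 SE, thin bars 95% intervals, and orange ticks the estimates with each of the 6 libraries left out in turn. The intervals of Cd93, Vash1 and Egfl7 lie above 0, and the Esm1 estimates run from -2.08 to -0.46.

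Levels of different genes were compared per length, as RPKM. In the knock-out libraries the order was Egfl7 (466 ± 18.0 RPKM), Cd93 (249 ± 67.4), Robo4 (184 ± 10.5), Clec14a (158 ± 47.2), Vash1 (47.8 ± 1.11), Esm1 (38.7 ± 12.95), Thbs1 (14.0 ± 1.86) and Pdgfb (11.4 ± 2.89, each mean RPKM ± SD, n = 3). In the controls the order was Egfl7 (297 ± 39.6 RPKM), Robo4 (145 ± 33.7), Clec14a (136 ± 13.9), Esm1 (109 ± 100.5), Cd93 (106 ± 24.5), Vash1 (24.5 ± 2.44), Thbs1 (14.4 ± 3.46) and Pdgfb (11.8 ± 1.65, each mean RPKM ± SD, n = 3). Egfl7 was the highest in every library of both groups, and Cd93 was in second place in the knock-out and in place 5 in the controls.

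Neighbours in this order were not always distinct. In the knock-out, the ranges of Robo4 and Clec14a, of Vash1 and Esm1, and of Thbs1 and Pdgfb overlapped. In the controls, Robo4 overlapped Clec14a, Clec14a overlapped Esm1, Esm1 overlapped Cd93 and Thbs1 overlapped Pdgfb. By mean RPKM, Egfl7 was at percentile 99.6 of the tested genes in the knock-out and 99.2 in the controls, and Pdgfb at 63.5 in the knock-out and 65.4 in the controls.

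**Figure D5:**
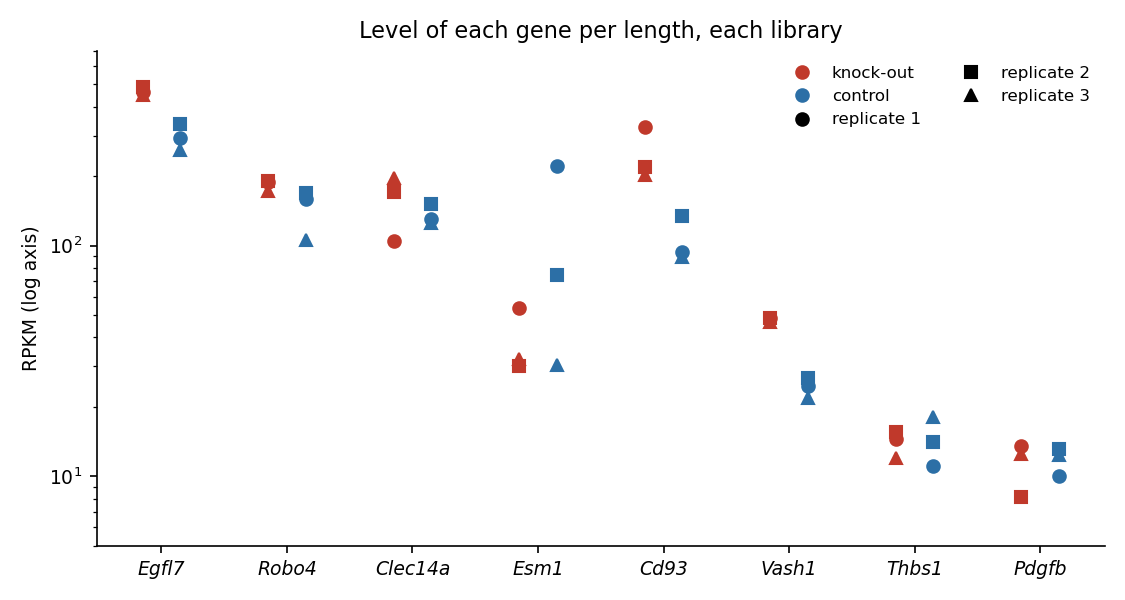
RPKM of each gene (vertical log axis) in the 3 knock-out libraries (red, left of each pair) and the 3 control libraries (blue), ordered by the control mean. Egfl7 lies above the other 7 genes in every library, and Cd93 is at 203 to 326 RPKM in the knock-out and 89.6 to 134 RPKM in the control.

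Other genes of the same processes were counted as lists. Of 24 other tip cell genes, all tested, edgeR called 0 (8 higher and 4 lower at an unadjusted p under 0.05), DESeq2 called 7 higher and 2 lower, and limma-voom called 4 higher and 0 lower. Over all genes tested by each, DESeq2 called 3.61% higher and 2.7% lower, and limma-voom 1.89% higher and 1.29% lower. In this list 8 genes were higher and 4 lower without overlap, against 13.2% higher and 11.7% lower over all tested genes. An unadjusted edgeR p under 0.05 was reached by 17.5% of all tested genes. The median log2 fold change of the list was 0.17, against -0.03 over all tested genes. Apln, the peptide apelin that tip cells secrete, had the smallest p of the list, with 38.9, 17.02 and 20.1 CPM in the knock-out libraries against 3.63, 3.46 and 3.23 CPM in the controls. The Apln groups were far apart, and the log2 fold change was 2.88 ± 0.35 (SE, edgeR adjusted p = 0.0508).

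Fscn1, the actin bundler of filopodia, had 462, 533 and 466 CPM in the knock-out libraries, against 259, 258 and 222 CPM in the controls. The groups did not overlap, and the log2 fold change was 0.98 ± 0.12 (SE, edgeR adjusted p = 0.0508). Fscn1 was also the gene whose pattern over the 6 libraries, with the difference between the groups kept in, was most like that of Vash1.

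Of 24 other angiogenesis inhibitors and VEGF feedback genes, 21 could be tested and edgeR called 0 (3 higher and 2 lower at an unadjusted p under 0.05), while DESeq2 called 2 higher and 1 lower and limma-voom called 2 higher and 1 lower. Over all tested genes 17.5% had an unadjusted edgeR p under 0.05. DESeq2 called 3.61% higher and 2.7% lower of all genes it tested, and limma-voom 1.89% higher and 1.29% lower. Of the 21, 10 had a positive and 11 a negative log2 fold change. Without overlap 3 were higher and 2 lower, against 13.2% higher and 11.7% lower over all tested genes. Adamts1, a secreted protease that binds VEGF and restrains angiogenesis, had 1302, 1027 and 936 CPM in the knock-out libraries, against 572, 463 and 623 CPM in the controls. It had the smallest p of this list, its groups did not overlap, and the log2 fold change was 0.98 ± 0.19 (SE, edgeR adjusted p = 0.0996). Spred1, the inhibitor of Ras signalling named above as a target of miR-126, had 127, 114 and 124 CPM in the knock-out libraries, against 88.6, 85.2 and 93.9 CPM in the controls, without overlap and with an edgeR adjusted p of 0.112.

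The 23 partners and paralogs of the 8 genes were counted likewise. Of the 21 tested, edgeR called 0, with 0 higher and 3 lower at an unadjusted p under 0.05. Over all 15404 tested genes, 1447 were higher and 1252 lower at that level, 17.5% together. Without overlap 0 were higher and 2 lower, against 13.2% higher and 11.7% lower over all tested genes. DESeq2 called 3 lower and limma-voom 1 lower, against 2.7% and 1.29% over all genes each tested. There were 6 positive and 15 negative log2 fold changes, where 8290 of 15404 tested genes were negative. Their median was -0.40, against -0.03 over all tested genes. Several of the list, such as Pdgfrb and Cd248, are genes of mesenchymal cells, whose part was not tested.

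The gene with the pattern most like each member was found by the Pearson correlation of log2 CPM over the 6 libraries, among 12319 tested genes of at least moderate level. The group means were not removed, so a shared difference between the groups, or 1 outlying library, can set r. With 6 points such values are a description only, and shared regulation was not tested. Vash1 was most like Fscn1 (r = 0.996) and Angel1 (r = 0.994), and 186 genes had r above 0.95 with it. Egfl7 was most like Mapk11 (r = 0.999) and Tmem106a (r = 0.997), with 179 genes above 0.95. Cd93 was most like N4bp3 (r = 0.997), with 108 genes above 0.95.

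The remaining members ranged more widely. Esm1 was most like Snx20 (r = 0.995) and Acbd3 (r = 0.993), with 104 genes above 0.95, and Robo4 like Ewsr1 (r = 0.997) and Lrrc8c (r = 0.991), with 47 genes. Pdgfb was most like Zbtb1 (r = 0.997) and Zcchc11 (r = 0.991), with 38 genes, and Clec14a like Nek3 (r = 0.992) and Gm2573 (r = 0.991), with 41 genes. Thbs1 had the fewest, 5 genes above 0.95, led by Rtn2 (r = 0.976) and Nkg7 (r = 0.971).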

How the data were processed

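Per the labels, RNA of isolated SECs was sequenced on an Illumina HiSeq instrument. The submitters' processing notes name TopHat2 version 2.0.13, bcl2fastq and mm10. How reads were counted, with which annotation and whether by strand, is not given in the sources used here. One table that the authors deposited holds whole-number counts per gene and library, not normalized, and RPKM values that the authors computed from them. The deposited RPKM equalled counts divided by gene length and library total for 100.0% of values within 0.1%. Date-like names left by a spreadsheet (27 rows) were restored through the table's gene links, and an alias was dropped from 4 names.

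Groups came from the sample titles. Counts were fitted with edgeR 4.0.16 in R 4.3.3 (TMM, filterByExpr, robust glmQLFit, glmQLFTest, two-sided, group as the one term), with Benjamini-Hochberg adjustment over all 15404 tested genes and a threshold of 0.05. The SE was derived from the F statistic and fold change. The 95% interval came from the SE and the total degrees of freedom of the test, residual plus prior. Per-library values are normalized CPM, for which 3 counts correspond to 0.243 to 0.289 CPM of the library total. This level of 3 counts concerns counting error only, and not the spread between libraries. Ribosomal RNA rows took 0.993% to 6.90% of counts.

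Overlapping annotations of the 8 genes had few counts, the most being 21 for a long non-coding RNA opposite Esm1, against 10122 for Esm1, so strand use bears little on them. Positions follow the table (mm10, 1-based). Exon numbers are from GENCODE, and sequences from RefSeq. Of 173 gene list entries, 171 matched by symbol and 2 by synonym. Named were the 8 genes, Rbpj, the partners a sentence needed, from 2 other lists up to 4 called genes or else the 2 with the smallest p, and for likeness the 2 genes with the highest Pearson r (prior count of 2) per member. A gene that the likeness rule took is not reported here. The members and lists were chosen with earlier results of these data known.

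Alternatives were RLE size factors, ribosomal RNA rows left out, DESeq2 1.42.0, voom with quality weights in limma 3.58.1, each library left out, a block on the replicate number, no count filter, a stricter one (average log2 CPM of 1 or more, and 10 or more counts in 3 or more libraries), and calls limited to an absolute log2 fold change of 1 or more. Scaling to the summed counts of 6 pan-endothelial markers was added after the data were seen. The exact permutation test was run in scipy 1.17.1.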

Additional observations from a re-analysis of the deposited data

How the results depend on the processing

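Over 15 alternatives for each of the 8 genes, 108 of 120 log2 fold changes kept their sign and side of the threshold, 8 passed it newly (5 for Vash1, 2 for Cd93 and 1 for Egfl7) and 4 changed sign. The limit to an absolute log2 fold change of 1 reuses the reported fit and can only remove calls, so its values for the 8 genes could not differ. Each sign change came from leaving out 1 library. Thbs1 ran from -0.24 to 0.085 with 1 library left out, positive without control replicate 3 and, at 0.0094, without knock-out replicate 3. Pdgfb ran from -0.26 to 0.030, positive without knock-out replicate 2, and Clec14a from -0.028 to 0.37, negative without knock-out replicate 3. Members called higher in the knock-out numbered 0 by edgeR as reported, 1 with RLE size factors, 3 in DESeq2, 1 in limma-voom, 2 with no filter on low counts and 1 with the stricter filter. Members called lower numbered 0 under every alternative run (at an unadjusted p under 0.05, 0 as reported and 1, Esm1, in DESeq2 and without control replicate 3). Over all tested genes, edgeR called 16 higher and 14 lower as reported. RLE size factors gave 35 higher and 20 lower, DESeq2 542 and 405, limma-voom 291 and 198, no filter 114 and 62, the stricter filter 47 and 26, and scaling to pan-endothelial markers, chosen after seeing the data, 8 and 6. With 1 library left out the calls ran from 0 to 23 higher and from 0 to 18 lower, and were above 0 only without knock-out replicate 1.

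The replicate number as a block gave 1 higher and 2 lower calls over all genes and 0 members, with an edgeR adjusted p of 0.0698 for Vash1. Correlations of the deviations of same-numbered libraries were 0.19, 0.03 and 0.42, and 4 of 6 libraries correlated best with the library of their own number. The libraries were not treated as pairs, because the labels do not say that a replicate number marks a shared animal, litter or day. Scaled to pan-endothelial markers, the log2 fold changes were 0.85 for Vash1 (edgeR adjusted p = 0.0630), 1.14 for Cd93, 0.53 for Egfl7 and -1.60 for Esm1. Cd93 and Egfl7 passed in DESeq2 and not in edgeR as reported, and the cause of the gap between edgeR and DESeq2 was not tested.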

Other observations

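Among the other angiogenesis inhibitors and VEGF feedback genes, Sema3a, a guidance ligand that repels endothelial cells and competes for neuropilin-1, was chosen after its values were seen. It had 291, 5.65 and 5.97 CPM in knock-out libraries 1 to 3, against 4.27, 2.87 and 5.03 CPM in control libraries 1 to 3, with a log2 fold change of 4.63 and an edgeR adjusted p of 0.261. A single knock-out library carried the difference, and it was the library with the most Cd93 and the least Clec14a. That library also had the highest sum of 10 hepatocyte markers, 4845 CPM, against 353 to 2921 CPM in the other libraries. Its sum of stellate cell markers was the lowest, at 1461 CPM. The part of other cells in these values was not tested.

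Other tip cell genes, also chosen after their values were seen, did not share 1 direction. Ramp3, the co-receptor that lets the calcitonin receptor-like receptor bind adrenomedullin, had 64.3, 35.8 and 42.3 CPM in the knock-out libraries, against 6.08, 7.93 and 11.5 CPM in the controls (edgeR adjusted p = 0.0521). Nid2, the basement membrane protein nidogen-2, had 282, 338 and 315 CPM in the knock-out libraries, against 62.4, 108 and 132 CPM in the controls (edgeR adjusted p = 0.0825). Angpt2, the Tie2 ligand that loosens vessels, averaged 24.6 ± 7.01 CPM in the knock-out libraries and 46.9 ± 20.4 CPM in the controls (SD, n = 3 each, edgeR adjusted p = 0.265), and Dll4, the Notch ligand of tip cells, had 115, 142 and 152 CPM in the knock-out libraries, against 293, 217 and 161 CPM in the controls (edgeR adjusted p = 0.216). Dll4 did not overlap between the groups, and its nearest libraries, at 152 and 161 CPM, lay close together.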
